A study of Mus musculus with 11 samples.

Results

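Sorted cells of the PomcGFP reporter line were compared with sorted cells of the tgTbr2GFP reporter line, gene by gene. All arrays of the 2 lines were used, 2 of PomcGFP and 3 of tgTbr2GFP, which made 5 of the 11 arrays of the series, and 16527 genes were compared. The mice of both lines were adult, at postnatal day 35, and the labels name no treatment. PomcGFP mice are labelled as transgenic for green fluorescent protein (GFP) under the name of Pomc, the pro-opiomelanocortin gene, whose reporter is known to label newborn granule neurons in the adult dentate gyrus. In tgTbr2GFP mice the fluorescent protein is carried on a bacterial artificial chromosome (BAC) transgene of Eomes, the gene of the transcription factor Tbr2. A fluorescent protein can outlast the RNA of the gene that drives it, so a sorted cell need not still express Pomc or Eomes. Per the labels, dorsal and ventral dentate gyrus was cut out of brain slices and dissociated, fluorescent cells were sorted, each group yielded about 3000 to 5000 cells, and their RNA was amplified before it was put on Affymetrix Mouse Gene 1.0 ST arrays. The labels do not say whether each array came from its own set of animals. The p-values below set the difference between the lines against the spread between arrays of the same line. That spread may be technical at least in part. Sex-linked genes, given below, differed widely between the tgTbr2GFP arrays, so those arrays were not repeats of a single pool of animals. For the 2 PomcGFP arrays the labels do not settle the question.

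The dentate gyrus is the part of the hippocampus in which stem cells go on making granule neurons in the adult. A stem cell with radial glial features gives rise to intermediate progenitors, which express Tbr2 and divide, and their daughters pass through an immature stage marked by doublecortin before they become granule neurons with calbindin, glutamate receptors and mature calcium signalling. The GFP of the Tbr2 lines thus marks a stage that comes before the one marked by Pomc-GFP. Tbr2 is also known from Cajal-Retzius cells, early-born neurons that secrete reelin and lie near the hippocampal fissure.

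In these data genes of cell division, of the progenitor stage and of Cajal-Retzius cells were among those lower in PomcGFP, and genes of mature granule neurons, of neurotransmitter receptors and of calcium signalling were among those higher. Values are log2 RMA levels, differences are PomcGFP minus tgTbr2GFP on the log2 scale, and a difference of 1 is a 2-fold difference. A gene passed the test at a limma adjusted p under 0.05, with the spread pooled over the 4 lines of the series. By that test 226 genes (1.37% of those compared) differed, 90 higher (0.545%) and 136 lower (0.823%) in PomcGFP, and 58 and 67 of them by more than 2-fold. A fit of the 5 arrays alone called 143 genes (0.865%), 53 higher (0.321%) and 90 lower (0.545%), of which 106 were shared with the first fit. The kiTbr2GFP arrays enter the 4-line fit through the spread, the filter and the choice of probe sets. A fit without them, with that filter and choice kept, called 104 genes, 102 of them shared. It kept 39 of the 68 named genes that passed, and the losses are given with each group below. The fit of the 5 arrays also kept that filter and choice. Both PomcGFP arrays lay above all tgTbr2GFP arrays in 2620 of all genes (15.9%) and below them in 2145 (13%).

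**Figure D1:**
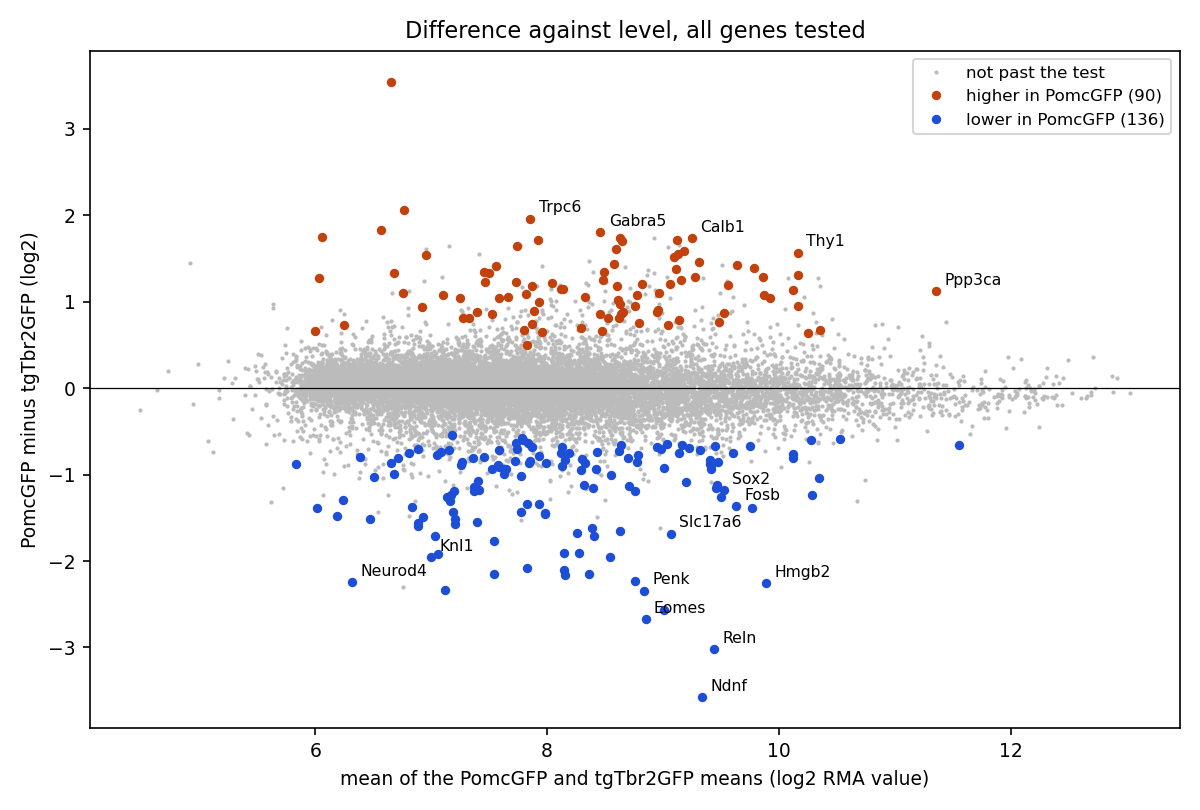
Each point is 1 of the 16527 genes, with the mean of the line means (log2 RMA value) on the x axis and the difference PomcGFP minus tgTbr2GFP (log2) on the y axis. Orange points are the 90 genes higher and blue points the 136 genes lower in PomcGFP past the test, and the largest labelled differences are those of Ndnf and Reln among the lower genes and Trpc6 among the higher ones.

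The arrays of a line resembled each other more than those of the other line, with a correlation across genes of 0.978 between the PomcGFP arrays, 0.967 to 0.978 among the tgTbr2GFP arrays and 0.953 to 0.964 between lines. Array medians lay between 7.05 and 7.14. tgTbr2GFP array 1 stood apart from the other tgTbr2GFP arrays. It was the highest tgTbr2GFP array for 63 of the 90 higher genes, against 4290 of all 16527 genes. It was the lowest for 86 of the 136 lower genes, against 8242 of all 16527. It thus lay nearest to PomcGFP for most of the called genes, but it was also the lowest of its line for a large share of all genes. Leaving that array out raised the number of called genes to 275, and leaving out any other array lowered it, to 38 without PomcGFP array 1, 52 without PomcGFP array 2, 78 without tgTbr2GFP array 2 and 93 without tgTbr2GFP array 3. Sex-linked genes differed between the tgTbr2GFP arrays. Xist, the RNA that silences an X chromosome in females, read 11.08 and 10.88 in PomcGFP and 6.40, 11.44 and 11.27 in tgTbr2GFP arrays 1, 2 and 3. The Y-linked gene Eif2s3y read 8.79 and 8.52, against 9.76, 3.75 and 8.24. No gene of this list passed the test (adjusted p of 0.874 for Xist and 0.874 for Eif2s3y). The Y-linked genes Kdm5d and Uty were likewise highest in tgTbr2GFP array 1 (9.26 and 8.10) and lowest in array 2 (6.98 and 4.43). The part of sex in the results was not tested beyond a fit with the level of the Y-linked genes as a covariate, which called 132 genes.

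The genes behind the reporters were read first. Eomes read 7.68 and 7.35 on the PomcGFP arrays and 9.83, 10.34 and 10.39 on the tgTbr2GFP arrays. The lines did not overlap, and the difference of Eomes was -2.67 ± 0.22 (SE, adjusted p = 0.000414), a call that passed in the fit of the 5 arrays and with each array left out. Pomc read 7.27 and 7.22 in PomcGFP and 6.48, 6.80 and 7.03 in tgTbr2GFP. Both PomcGFP arrays were the highest, but the difference of 0.48 ± 0.17 did not pass (adjusted p = 0.291). Calb1, which encodes the calcium-binding protein calbindin of mature granule neurons, read 10.10 and 10.14 in PomcGFP and 8.72, 8.03 and 8.40 in tgTbr2GFP. Calb1 was thus well separated and higher in PomcGFP by 1.74 ± 0.26 (adjusted p = 0.00927), although it no longer passed without PomcGFP array 1 or array 2 (adjusted p of 0.0889 to 0.0966).

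**Figure D2:**
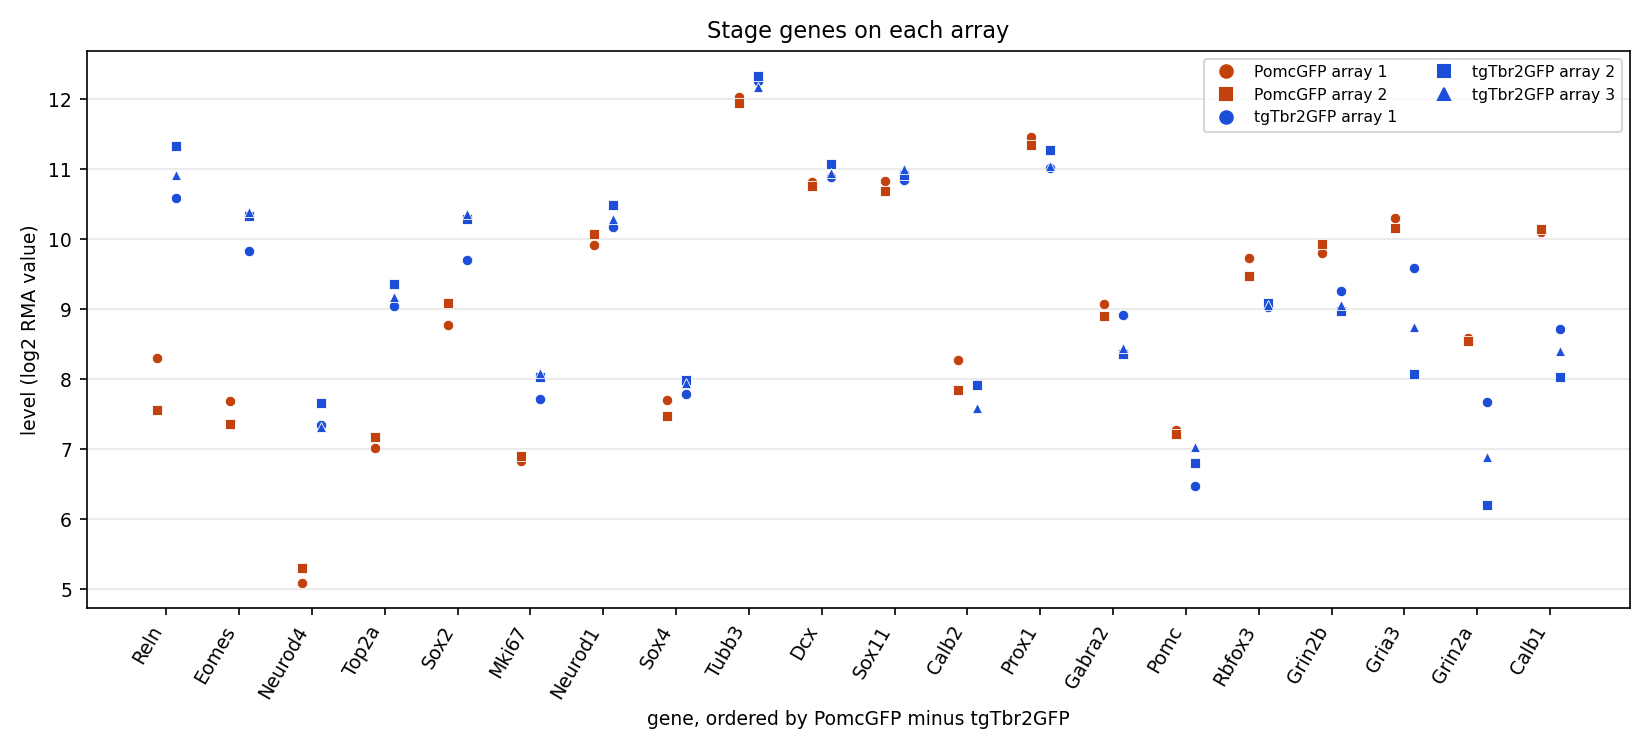
Levels (log2 RMA value, y axis) of 20 stage genes on each of the 5 arrays, ordered along the x axis from the most negative to the most positive difference. Each point is 1 array, orange for PomcGFP and blue for tgTbr2GFP. Reln, Eomes, Neurod4 and Top2a lie far lower in PomcGFP, Grin2a and Calb1 lie higher, and Dcx, Sox11 and Tubb3 in the middle lie close together in both lines.

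Genes of mitosis made up the clearest group. The list holds proteins of the mitotic spindle, the kinetochore, chromosome condensation and cytokinesis, and 17 of its 33 measured members were lower in PomcGFP and none higher. The fit of the 5 arrays also called 17 as lower, of which 15 were shared with the 4-line fit. All 33 differences were negative and their median was -0.94, against 0.03 over all genes. In 30 members both PomcGFP arrays lay below all tgTbr2GFP arrays, against 13% of all genes. The count of 17 became 7 without either PomcGFP array, 15 without tgTbr2GFP array 1, 10 without array 2, 11 without array 3 and 11 without the kiTbr2GFP arrays.

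Hmgb2, a chromatin protein abundant in dividing cells, read 8.80 and 8.71 in PomcGFP and 10.88, 11.05 and 11.12 in tgTbr2GFP. It had the largest difference of the list, -2.26 ± 0.12, and the smallest adjusted p of all genes (9e-06). Top2a, the topoisomerase that untangles chromosomes for division, read 7.02 and 7.17 in PomcGFP and 9.05, 9.36 and 9.17 in tgTbr2GFP. The arrays of each line lay within a narrow range, far from those of the other, and the difference was -2.10 ± 0.23 (adjusted p = 0.00149). Cks2, a binding partner of the cyclin-dependent kinases, read 6.72 and 6.21 against 8.35, 8.84 and 8.65 (-2.15 ± 0.22, adjusted p = 0.00106). Knl1, the scaffold on which the outer kinetochore is built, read 6.24 and 5.80 against 8.17, 7.64 and 8.11 (-1.95 ± 0.23, adjusted p = 0.00249). In both genes the highest PomcGFP array lay more than a 2-fold step below the lowest tgTbr2GFP array. Cenph, another kinetochore protein and one of the largest differences outside the list, read 6.30 and 5.90 against 8.06, 8.06 and 7.94 (-1.92 ± 0.16, adjusted p = 0.000414). These 5 genes, Hmgb2, Top2a, Cks2, Knl1 and Cenph, passed with each array left out in turn.

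Mki67, the gene of the proliferation marker Ki-67, read 6.83 and 6.90 in PomcGFP and 7.71, 8.02 and 8.08 in tgTbr2GFP. Its difference was -1.07 ± 0.15 (adjusted p = 0.00598), but it did not pass without PomcGFP array 1 or array 2 (0.0578 to 0.0815). Not every mitotic gene separated the lines: the 16 members that did not pass included Aurkb, a kinase of chromosome alignment, at 7.38 and 7.41 in PomcGFP and 7.23, 7.52 and 7.79 in tgTbr2GFP (-0.12, adjusted p = 0.933). Cdk1, the kinase that drives entry into mitosis, read 6.75 and 6.75 against 7.54, 7.40 and 7.54 and passed in the fit of the 5 arrays (adjusted p = 0.038) but not in the 4-line fit (0.412).

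Genes of DNA replication moved less. Of 24 measured, 4 were lower and none higher, with a median of -0.52. In 18 both PomcGFP arrays lay below all tgTbr2GFP arrays, against 13% of all genes. The 4 were Hells, a chromatin remodeller of dividing cells, Tyms and Rrm1, enzymes that supply nucleotides, and Mcm4, a subunit of the replicative helicase. Hells read 6.49 and 6.46 in PomcGFP and 7.71, 8.02 and 7.99 in tgTbr2GFP (-1.43 ± 0.19, adjusted p = 0.00566). It was the 1 member that also passed in the fit of the 5 arrays (adjusted p = 0.0165). The differences of Tyms, Rrm1 and Mcm4 were -0.81, -0.79 and -0.72. Leaving out PomcGFP array 1, tgTbr2GFP array 2, tgTbr2GFP array 3 or the kiTbr2GFP arrays left 1 called gene, leaving out PomcGFP array 2 left 0, and leaving out tgTbr2GFP array 1 left 3.

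Many promoters of mitotic genes are known to carry a cell cycle homology region, the element TTTGAA, together with CCAAT boxes, and to be silenced through that element when a cell leaves the cycle. The RefSeq promoter table (mouse build GRCm38.p6, 250 bases before to 50 after the start) held 12972 of the genes tested. The promoters of the mitotic genes with the largest differences are shown because their genes were lower together. Each run holds the 200 bases before the start on the strand of the gene, 5′ to 3′, with TTTGAA or its reverse complement TTCAAA and CCAAT or its reverse complement ATTGG in capitals. They lie at chr8:57511643-57511842 (+) for Hmgb2, chr11:99024190-99024389 (-) for Top2a and chr13:51645032-51645231 (+) for Cks2.
Hmgb2: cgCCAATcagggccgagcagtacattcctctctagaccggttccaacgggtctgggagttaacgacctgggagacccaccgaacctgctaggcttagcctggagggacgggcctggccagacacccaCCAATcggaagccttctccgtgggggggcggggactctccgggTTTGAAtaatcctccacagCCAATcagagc
Top2a: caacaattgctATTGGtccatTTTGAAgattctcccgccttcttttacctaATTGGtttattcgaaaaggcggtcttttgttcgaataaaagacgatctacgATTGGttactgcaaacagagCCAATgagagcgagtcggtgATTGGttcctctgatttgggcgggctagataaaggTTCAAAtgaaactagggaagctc
Cks2: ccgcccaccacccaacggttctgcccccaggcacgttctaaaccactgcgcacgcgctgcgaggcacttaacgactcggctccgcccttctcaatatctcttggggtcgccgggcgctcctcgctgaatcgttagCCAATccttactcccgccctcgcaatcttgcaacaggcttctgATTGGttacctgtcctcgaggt
In Hmgb2 a TTTGAA began 30 bases before the start (position -30), and in Top2a a TTCAAA began at position -23, each with CCAAT boxes upstream. Cks2 had 4 CCAAT boxes and no TTTGAA on either strand in its 300-base window, and Knl1 had 1 element at position 32 after the start and no CCAAT box.

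Over all promoters of that length, 12.5% held TTTGAA or TTCAAA, 37.7% held CCAAT or ATTGG and 5.09% held both. Of the 29 measured mitosis members with a promoter, whether or not they passed the test, 79.3%, 75.9% and 65.5% did. Of the 14 such members that passed the test the shares were 64.3%, 78.6% and 57.1%. Of 109 promoters of the genes lower in PomcGFP the shares were 24.8%, 47.7% and 15.6%, and of 63 promoters of the genes higher in PomcGFP they were 4.76%, 34.9% and 0%. The promoters of genes lower in PomcGFP include those of the mitotic genes. CCAAT can share end letters with ATTGG or TTTGAA, and a match describes the sequence and does not show that a factor binds there.

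**Figure D3:**
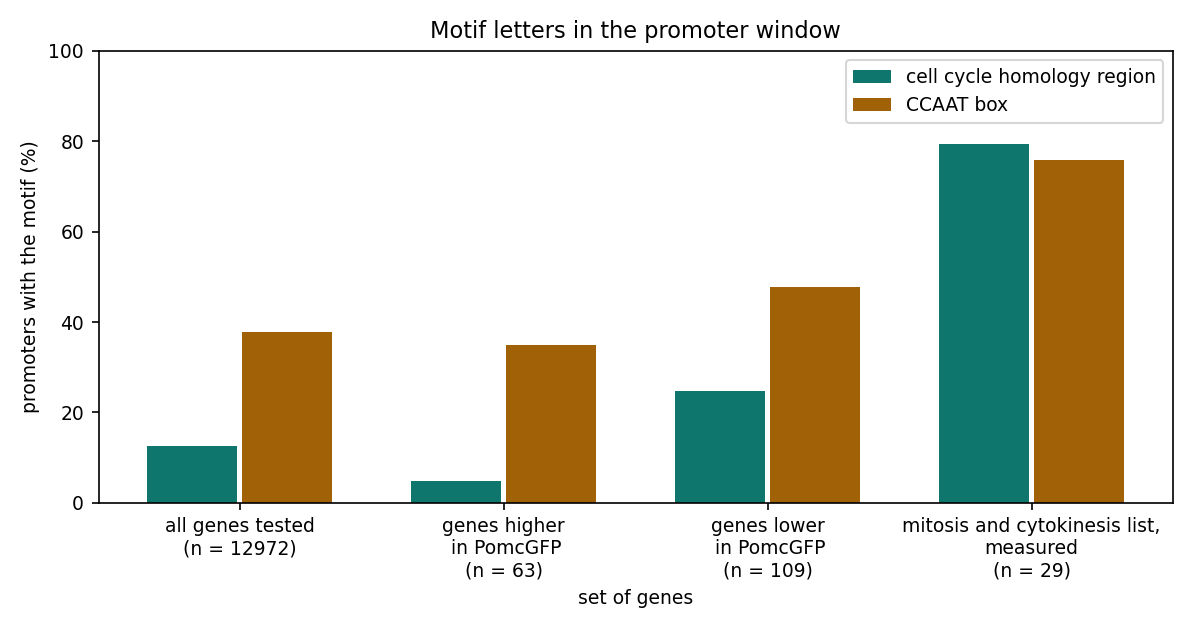
Share of promoters (y axis, percent) that hold the cell cycle homology region (TTTGAA or TTCAAA, green) or the CCAAT box (CCAAT or ATTGG, brown) in the 300-base window. The sets on the x axis are all genes tested with a promoter, the genes higher and lower in PomcGFP past the test, and the measured mitosis list, where 79.3% held the first motif against 12.5% of all.

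Members of the intermediate progenitor list passed as lower in PomcGFP only in part. In 16 of its 20 measured members both PomcGFP arrays lay below all tgTbr2GFP arrays and in 0 above, against 13% and 15.9% of all genes. Of the 20, 5 passed as lower and none as higher (median -0.31), and 3 of these passed in the fit of the 5 arrays. Besides Eomes these included Neurod4, a proneural basic helix-loop-helix factor, which read 5.09 and 5.30 in PomcGFP and 7.35, 7.66 and 7.32 in tgTbr2GFP (-2.25 ± 0.32, adjusted p = 0.00686). Both PomcGFP values for Neurod4 were below the 25th percentile of their arrays (6.13 and 6.15), where levels are hard to tell from background. Elavl4, an RNA-binding protein of neurons that are starting to differentiate, read 7.51 and 7.07 against 9.10, 9.80 and 9.43 (-2.15 ± 0.21, adjusted p = 0.000897). Btg2, an antiproliferative factor of neurogenic divisions, differed by -0.88 ± 0.16 (adjusted p = 0.0194). Neurog2, the proneural factor upstream of Tbr2 and named here after its values were seen, read 8.27 and 8.52 against 8.96, 9.21 and 9.34 (-0.78, adjusted p = 0.0205). Without PomcGFP array 1 or 2 the count of 5 became 2, without tgTbr2GFP array 2 or 3 or the kiTbr2GFP arrays it became 3, and without tgTbr2GFP array 1 it became 6. Neurod4 did not pass without PomcGFP array 1 or array 2 (0.0609 to 0.0868), and Btg2 and Neurog2 did not pass without either PomcGFP array, tgTbr2GFP array 2 or tgTbr2GFP array 3.

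Other named members expressed across the step from progenitor to neuron had smaller differences that did not pass. Neurod1, the factor that carries granule cells into differentiation, read 9.92 and 10.07 in PomcGFP and 10.17, 10.49 and 10.29 in tgTbr2GFP (-0.33 ± 0.16, adjusted p = 0.57). Sox11, a factor of immature neurons, read 10.83 and 10.69 against 10.85, 10.92 and 11.01 (-0.17 ± 0.13, adjusted p = 0.841), and Sox4, its close relative, differed by -0.32 ± 0.13 (0.434). For all 3 both PomcGFP arrays lay below all tgTbr2GFP arrays, by small steps. A p above the threshold does not show that the levels were equal.

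Of 23 measured genes of radial glia and neural stem cells, 4 were lower in PomcGFP and none higher in the 4-line fit, and none passed in the fit of the 5 arrays. Cdk6, a cyclin-dependent kinase of the first gap phase, read 7.12 and 7.72 in PomcGFP and 8.96, 8.79 and 9.54 in tgTbr2GFP (-1.67 ± 0.33, adjusted p = 0.0319). Sox2, a factor of stem and progenitor cells, read 8.77 and 9.09 against 9.70, 10.29 and 10.35 (-1.18 ± 0.20, adjusted p = 0.0167). In both genes the lines were apart, by less for Sox2 in tgTbr2GFP array 1 than in the others. Pax6, which acts upstream of Tbr2, differed by -0.91 ± 0.16 (adjusted p = 0.0167) and Hopx, a marker of quiescent stem cells, by -0.75 ± 0.13 (adjusted p = 0.017). The median of the list was -0.20. In 10 of its members both PomcGFP arrays lay below all tgTbr2GFP arrays and in 2 above, against 13% and 15.9% of all genes. Nes, the filament of stem cells, read 6.07 and 5.97 against 5.78, 5.91 and 6.14, and Gfap, the filament of astrocytes and radial stem cells, 7.17 and 7.61 against 7.61, 7.33 and 7.89, so that the lines overlapped in both. None of the 4 calls passed without PomcGFP array 1, PomcGFP array 2, tgTbr2GFP array 2, tgTbr2GFP array 3 or the kiTbr2GFP arrays, and 3 of the list passed without tgTbr2GFP array 1.

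The immature granule neuron list held no call, although some members did not overlap between the lines. In 7 members both PomcGFP arrays lay below all tgTbr2GFP arrays and in 5 above, against 13% and 15.9% of all genes. None of its 24 measured members passed in either direction in either fit, the median was -0.08, and the differences ran from -0.59 for Gap43 to 0.55 for Rbfox3. Dcx, the microtubule protein doublecortin that defines this stage, read 10.82 and 10.76 in PomcGFP and 10.88, 11.07 and 10.94 in tgTbr2GFP. Both lines were high on these arrays and the difference was -0.18 ± 0.16 (adjusted p = 0.893). Prox1, the factor that specifies granule cells, read 11.46 and 11.34 against 11.02, 11.27 and 11.04 (0.29 ± 0.13, adjusted p = 0.472). Tubb3, the neuronal beta tubulin, differed by -0.27 ± 0.11 (0.415), Calb2, the calretinin gene expressed for a time in newborn neurons, by 0.25 ± 0.24 (0.901), and Gap43, a growth cone protein, by -0.59 ± 0.25 (0.45).

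Of 26 measured members of the mature granule neuron list 6 were higher in PomcGFP and none lower, while 20 did not pass. The median was 0.60 against 0.03 over all genes. In 20 members both PomcGFP arrays lay above all tgTbr2GFP arrays, against 15.9% of all genes. The 6 were Calb1, C1ql3, Dgkh, Stxbp6, Dsp and Lrrtm4, of which Calb1 and C1ql3 also passed in the fit of the 5 arrays. That fit called 4 members, the others being Camk2b and Syt1. C1ql3, a secreted synapse organiser, read 9.98 and 9.98 in PomcGFP and 8.33, 7.94 and 8.54 in tgTbr2GFP (1.71 ± 0.21, adjusted p = 0.00344). Dgkh, a diacylglycerol kinase, read 9.96 and 9.76 against 9.07, 8.02 and 7.93 (1.52 ± 0.31, adjusted p = 0.0376). Stxbp6, a regulator of vesicle fusion, read 10.30 and 10.01 against 9.34, 8.60 and 8.97 (1.19 ± 0.20, adjusted p = 0.0167). tgTbr2GFP array 1 was nearest to PomcGFP for Dgkh and Stxbp6, and tgTbr2GFP array 3 for C1ql3. Some hallmarks did not pass, among them Rbfox3, the gene of the neuronal marker NeuN, at 9.73 and 9.48 against 9.02, 9.08 and 9.05 (0.55 ± 0.16, adjusted p = 0.172). The count of 6 became 0 without PomcGFP array 1, 2 without PomcGFP array 2, tgTbr2GFP array 2 or tgTbr2GFP array 3, 7 without tgTbr2GFP array 1, and 2 when the kiTbr2GFP arrays were left out of the estimate of the spread. C1ql3 did not pass without PomcGFP array 1 (0.0508), and Dgkh and Stxbp6 did not pass without any of the PomcGFP arrays, tgTbr2GFP array 2 or tgTbr2GFP array 3.

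The receptor genes for the fast transmitters that passed were all higher in PomcGFP. Of 19 measured ionotropic glutamate receptor genes 2 were higher and none lower (median 0.26), both of them subunits of the NMDA receptor. In 11 of the 19 both PomcGFP arrays lay above all tgTbr2GFP arrays and in 2 below, against 15.9% and 13% of all genes. The differences of the list ran from -0.52 to 1.65. Grin2a, the subunit that rises as neurons mature, read 8.58 and 8.54 in PomcGFP and 7.67, 6.20 and 6.88 in tgTbr2GFP (1.65 ± 0.34, adjusted p = 0.0416). The tgTbr2GFP arrays were spread over more than a 2-fold range, with array 1 the nearest to PomcGFP. Grin2b, the subunit that predominates in young neurons, read 9.80 and 9.92 against 9.26, 8.98 and 9.06 (0.76 ± 0.13, adjusted p = 0.0144). Gria3, an AMPA receptor subunit, read 10.29 and 10.16 against 9.58, 8.08 and 8.75, and its difference of 1.42 ± 0.39 did not pass (adjusted p = 0.14). Neither NMDA receptor gene passed in the fit of the 5 arrays (0.131 for Grin2a and 0.0527 for Grin2b) or without the kiTbr2GFP arrays, PomcGFP array 1, PomcGFP array 2, tgTbr2GFP array 2 or tgTbr2GFP array 3, and 3 genes of the list passed without tgTbr2GFP array 1. Of 5 metabotropic receptors 1 passed, Grm7, a presynaptic receptor (0.69 ± 0.14, adjusted p = 0.0313). Grm7 did not pass without any one of these arrays (0.113 to 0.275) or without the kiTbr2GFP arrays. It did not pass in the fit of the 5 arrays either (0.0919).

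Of 14 genes of GABA receptors and chloride transporters 2 were higher and none lower (median 0.38). In 8 of the 14 both PomcGFP arrays lay above all tgTbr2GFP arrays and in 1 below, against 15.9% and 13% of all genes. The differences of the list ran from -0.88 to 1.80. Gabra5, the subunit of extrasynaptic receptors in the hippocampus, read 9.73 and 9.00 in PomcGFP and 7.94, 7.97 and 6.77 in tgTbr2GFP (1.80 ± 0.38, adjusted p = 0.0423). Gabbr2, a subunit of the metabotropic GABA receptor, read 8.81 and 8.96 against 8.07, 8.05 and 7.95 (0.86 ± 0.16, adjusted p = 0.0241). Both genes were apart between the lines, with the PomcGFP arrays spread widely for Gabra5 and closely for Gabbr2. Gabra2 read 9.08 and 8.90 against 8.91, 8.35 and 8.45 and overlapped (0.42 ± 0.45, adjusted p = 0.914). Outside the list, Glra2, a glycine receptor subunit, read 6.70 and 7.15 against 5.06, 5.67 and 4.82 (1.74 ± 0.28, adjusted p = 0.0114), with all tgTbr2GFP values under the 25th percentile of their arrays. Gabra5 (0.118) and Glra2 (0.0501) did not pass in the fit of the 5 arrays. Neither Gabra5 nor Gabbr2 passed without the kiTbr2GFP arrays, PomcGFP array 1, PomcGFP array 2, tgTbr2GFP array 2 or tgTbr2GFP array 3, and Glra2 did not pass without either PomcGFP array or tgTbr2GFP array 3 (0.0523 to 0.148).

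Calcium signalling held several of the larger differences. Of 27 measured members 4 were higher and none lower (median 0.46). In 19 both PomcGFP arrays lay above all tgTbr2GFP arrays and in 2 below, against 15.9% and 13% of all genes. Trpc6, a cation channel opened by diacylglycerol, read 8.92 and 8.75 in PomcGFP and 7.51, 6.28 and 6.83 in tgTbr2GFP (1.96 ± 0.29, adjusted p = 0.00742). Ryr2, the release channel of the endoplasmic calcium store, read 10.04 and 10.03 against 9.31, 8.06 and 8.36 (1.46 ± 0.30, adjusted p = 0.0376). In both genes the PomcGFP arrays agreed closely and tgTbr2GFP array 1 was the nearest to them. Ppp3ca, the catalytic subunit of the phosphatase calcineurin, read 11.95 and 11.88 against 11.04, 10.58 and 10.78 (1.12 ± 0.14, adjusted p = 0.00411). Trpc4, a relative of Trpc6, differed by 1.08 ± 0.16 (adjusted p = 0.00914), and Ptk2b, a calcium-activated kinase outside the list, by 1.74 ± 0.24 (adjusted p = 0.00598). The count of 4 became 0 without PomcGFP array 1, 2 without PomcGFP array 2, 3 without tgTbr2GFP array 2 or array 3, and 6 without tgTbr2GFP array 1. Ppp3ca, Trpc4 and Ptk2b did not pass without PomcGFP array 1 (0.0726, 0.119 and 0.0868), and Trpc6 passed neither without PomcGFP array 1 or 2 (0.0691 to 0.0918) nor in the fit of the 5 arrays (0.0596). Ryr2 passed neither in the fit of the 5 arrays (0.134) nor without the kiTbr2GFP arrays.

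Ion channels of the membrane differed in both directions. Of 31 potassium channel genes 2 were higher and 1 lower (median 0.15). The higher ones, Kcnj3 and Kcnj6, encode inward rectifiers opened by G proteins. Kcnj3 read 8.88 and 8.50 in PomcGFP and 7.69, 7.52 and 7.44 in tgTbr2GFP (1.14 ± 0.16, adjusted p = 0.00686), and Kcnj6 read 7.60 and 7.67 against 6.87, 6.29 and 6.53 (1.07 ± 0.16, adjusted p = 0.00863). Kcnc2, a channel of fast-spiking neurons, differed by -0.94 ± 0.18 (adjusted p = 0.026). Of 21 genes of sodium and calcium channels 1 was higher, Cacna1e, the pore of the R-type calcium channel (1.29 ± 0.25, adjusted p = 0.0316), and 1 was lower, Cacna2d2, an auxiliary calcium channel subunit. Cacna2d2 read 7.14 and 7.25 against 8.46, 9.56 and 9.26 (-1.90 ± 0.26, adjusted p = 0.00602). In the fit of the 5 arrays Kcnj3 passed (adjusted p = 0.0364). Kcnj6 (0.0558), Kcnc2 (0.101), Cacna1e (0.0734) and Cacna2d2 (0.0527) did not, and neither channel list held a lower gene in that fit. Without PomcGFP array 1 none of these 5 channel genes passed, without PomcGFP array 2 only Kcnj3 did, and without tgTbr2GFP array 2, tgTbr2GFP array 3 or the kiTbr2GFP arrays Kcnc2 and Cacna1e did not, while without tgTbr2GFP array 1 the higher sodium and calcium channel genes became 3.

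Genes of the synapse itself mostly did not pass. None of 25 genes of the synaptic vesicle and active zone passed in the 4-line fit (median 0.35). In 13 both PomcGFP arrays lay above all tgTbr2GFP arrays and in none below, against 15.9% and 13% of all genes. The 1 gene that passed in the fit of the 5 arrays was Syt1, the calcium sensor of vesicle release (adjusted p = 0.0368). Syt1 read 10.54 and 10.52 in PomcGFP and 9.73, 9.85 and 9.80 in tgTbr2GFP. Of 21 postsynaptic genes 1 was higher, Dlg3, a scaffold of glutamate receptors, at 9.08 and 8.97 against 8.28, 8.22 and 8.15 (0.81 ± 0.12, adjusted p = 0.00778). Dlg3 did not pass without either PomcGFP array (0.0642 to 0.105). Among the largest differences, Syt17, a member of the synaptotagmin family, read 9.97 and 9.85 against 8.63, 8.16 and 8.27 (1.55 ± 0.18, adjusted p = 0.00178) and passed with each array left out. Doc2b, another vesicle protein with the largest difference of its list (0.91 ± 0.30), did not pass (adjusted p = 0.239).

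Cell adhesion genes included several that were higher. Of 22 cadherins and protocadherins, proteins through which neurons recognise each other, 4 were higher, Cdh9, Cdh8, Pcdh19 and Pcdh20, and 1, Cdh7, lower (median 0.19). Cdh9, known for its part in mossy fibre synapses, read 9.49 and 9.51 in PomcGFP and 8.41, 7.35 and 7.63 in tgTbr2GFP (1.70 ± 0.30, adjusted p = 0.0173). Cdh8 read 9.84 and 9.72 against 8.54, 8.50 and 8.57 (1.24 ± 0.22, adjusted p = 0.0177), with the arrays of each line close together, and was the 1 member that passed in the fit of the 5 arrays (adjusted p = 0.0165). Pcdh19 and Pcdh20 differed by 1.23 ± 0.22 and 1.20 ± 0.20, and Cdh7 by -0.71 ± 0.14. Of the synaptic adhesion list 2 of 26 were higher, the ephrin receptor Epha7 and Cntnap5a, and 1 lower, Cntnap2 (median 0.17). Epha7 read 10.51 and 10.44 against 9.20, 9.18 and 8.89 (1.39 ± 0.25, adjusted p = 0.0194). Cntnap5a differed by 1.25 ± 0.21 (adjusted p = 0.0144) and Cntnap2 by -0.95 ± 0.17 (adjusted p = 0.0177). None of these adhesion genes passed without PomcGFP array 1, and the 4 higher cadherins became 1 without PomcGFP array 2 or tgTbr2GFP array 2, 0 without tgTbr2GFP array 3 and 6 without tgTbr2GFP array 1. The 2 higher synaptic adhesion genes became 0 without PomcGFP array 2, 1 without tgTbr2GFP array 2 or array 3 and 4 without tgTbr2GFP array 1. Without the kiTbr2GFP arrays Cdh9, Cdh7 and Cntnap2 did not pass. In the fit of the 5 arrays Epha7 passed (0.017), and Cntnap5a (0.0581) and Cntnap2 (0.0926) did not.

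The largest negative differences belonged to genes of Cajal-Retzius cells. Ndnf, a secreted factor, read 7.96 and 7.14 in PomcGFP and 10.70, 11.53 and 11.14 in tgTbr2GFP (-3.57 ± 0.37, adjusted p = 0.00106). Reln, which encodes the guidance protein reelin, read 8.31 and 7.55 against 10.59, 11.33 and 10.92 (-3.01 ± 0.30, adjusted p = 0.000897). Both genes were far apart between the lines on every array, and both passed in the fit of the 5 arrays and with each array left out. Of 11 measured members of the Cajal-Retzius list 4 were lower and none higher (2 in the fit of the 5 arrays), and the median was -0.63. In 10 both PomcGFP arrays lay below all tgTbr2GFP arrays, against 13% of all genes. Cacna2d2 and Ebf3, a transcription factor, were the other two (-0.89 ± 0.18 for Ebf3, adjusted p = 0.0415). Trp73, the p53 relative that marks these cells, read 6.96 and 7.05 against 7.10, 7.66 and 7.26, and its difference of -0.33 did not pass (adjusted p = 0.537). Lhx1 and Lhx5, transcription factors of these cells, differed by -0.88 and -0.50 and did not pass (0.124 and 0.225). The mean level of the list was 7.55 and 7.34 in PomcGFP and 8.26, 8.88 and 8.57 in tgTbr2GFP. The count of 4 became 2 without either PomcGFP array, 3 without tgTbr2GFP array 2 or 3 and 7 without tgTbr2GFP array 1. Ebf3 did not pass without the kiTbr2GFP arrays. Reln is also a member of the list of axon guidance and migration, where it was the 1 lower gene of 32, against 1 higher, Slit3 (0.50 ± 0.11, adjusted p = 0.0495), which passed in no fit with an array or the kiTbr2GFP arrays left out. In sorted bulk RNA, more cells of a type and more RNA per cell cannot be told apart, here and in the lists before.

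Other genes lower in PomcGFP were named after their values were seen, because they are known from neurons outside the granule cell layer. They belong to no list here, so no count of like genes stands beside them, and they do not name a cell type. Slc17a6, the vesicular glutamate transporter VGLUT2, read 8.47 and 7.99 in PomcGFP and 9.71, 10.32 and 9.70 in tgTbr2GFP (-1.68 ± 0.30, adjusted p = 0.0194). Nr2f2, a nuclear receptor of regional identity, read 7.14 and 7.39 against 8.27, 8.91 and 8.93 (-1.44 ± 0.20, adjusted p = 0.0065). Both were lower on both PomcGFP arrays by a clear margin. Among the 15 largest lower differences were also Penk, the precursor of enkephalin, at 8.19 and 7.13 against 9.57, 10.51 and 9.95 (-2.34 ± 0.34, adjusted p = 0.00686), Fam183b (-2.16 ± 0.25), Mia, a secreted protein (-1.96 ± 0.32), and Cd274, the immune checkpoint ligand PD-L1 (-1.77 ± 0.37, adjusted p = 0.0416). Penk did not pass without PomcGFP array 2 (0.0839), Nr2f2 without PomcGFP array 1 (0.0868), and Mia without either PomcGFP array or tgTbr2GFP array 2 (0.0577 to 0.154). Slc17a6 (0.0562 to 0.21) and Cd274 (0.144 to 0.311) did not pass without either PomcGFP array, tgTbr2GFP array 2 or tgTbr2GFP array 3. Cd274 also did not pass without the kiTbr2GFP arrays. In the fit of the 5 arrays Penk (0.0524), Nr2f2 (0.0513) and Cd274 (0.112) did not pass.

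The remaining large differences in the higher direction came from genes of varied function. Thy1, a surface protein of mature neurons, read 11.15 and 10.73 in PomcGFP and 9.37, 9.14 and 9.62 in tgTbr2GFP (1.56 ± 0.26, adjusted p = 0.0144). Kctd4, a protein with a tetramerisation domain, read 9.83 and 10.13 against 8.53, 8.31 and 8.34 (1.59 ± 0.16, adjusted p = 0.000897), and was 1 of 5 higher genes that passed with each array left out. The others were Syt17, Ncdn, the neuronal protein neurochondrin (1.38 ± 0.14), Slc7a14, an amino acid transporter (1.43 ± 0.16), and the predicted gene 4930578G10Rik. Lmo3, a transcriptional cofactor, differed by 1.71 ± 0.27, Trank1 by 1.61 ± 0.33, Fam205c by 1.83 ± 0.35 and Krt9, a keratin, by 1.54 ± 0.20. Of these, Krt9 did not pass without PomcGFP array 1 (0.059), Lmo3 without either PomcGFP array, Thy1 without either PomcGFP array or tgTbr2GFP array 2, Trank1 without any array but tgTbr2GFP array 1, and Fam205c without any array but PomcGFP array 1. Trank1 and Fam205c did not pass without the kiTbr2GFP arrays. In the fit of the 5 arrays Lmo3 (0.0527), Trank1 (0.157) and Fam205c (0.1) did not pass. All tgTbr2GFP values of Fam205c (5.20, 5.70 and 6.05) lay under the 25th percentile of their arrays, where levels are hard to tell from background. 4930578G10Rik, which the naming rule leaves out and which is named after its value was seen, had the largest positive difference, at 8.20 and 8.65 against 5.33, 5.02 and 4.29 (3.54 ± 0.31, adjusted p = 0.000509). All its tgTbr2GFP values were under the 25th percentile of their arrays. In the lower direction 20 genes passed with each array left out, among them Ndnf, Reln, Eomes, Hmgb2, Elavl4, Cks2, Top2a, Knl1 and Cenph. All 25 such genes also passed in the fit of the 5 arrays.

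**Figure D4:**
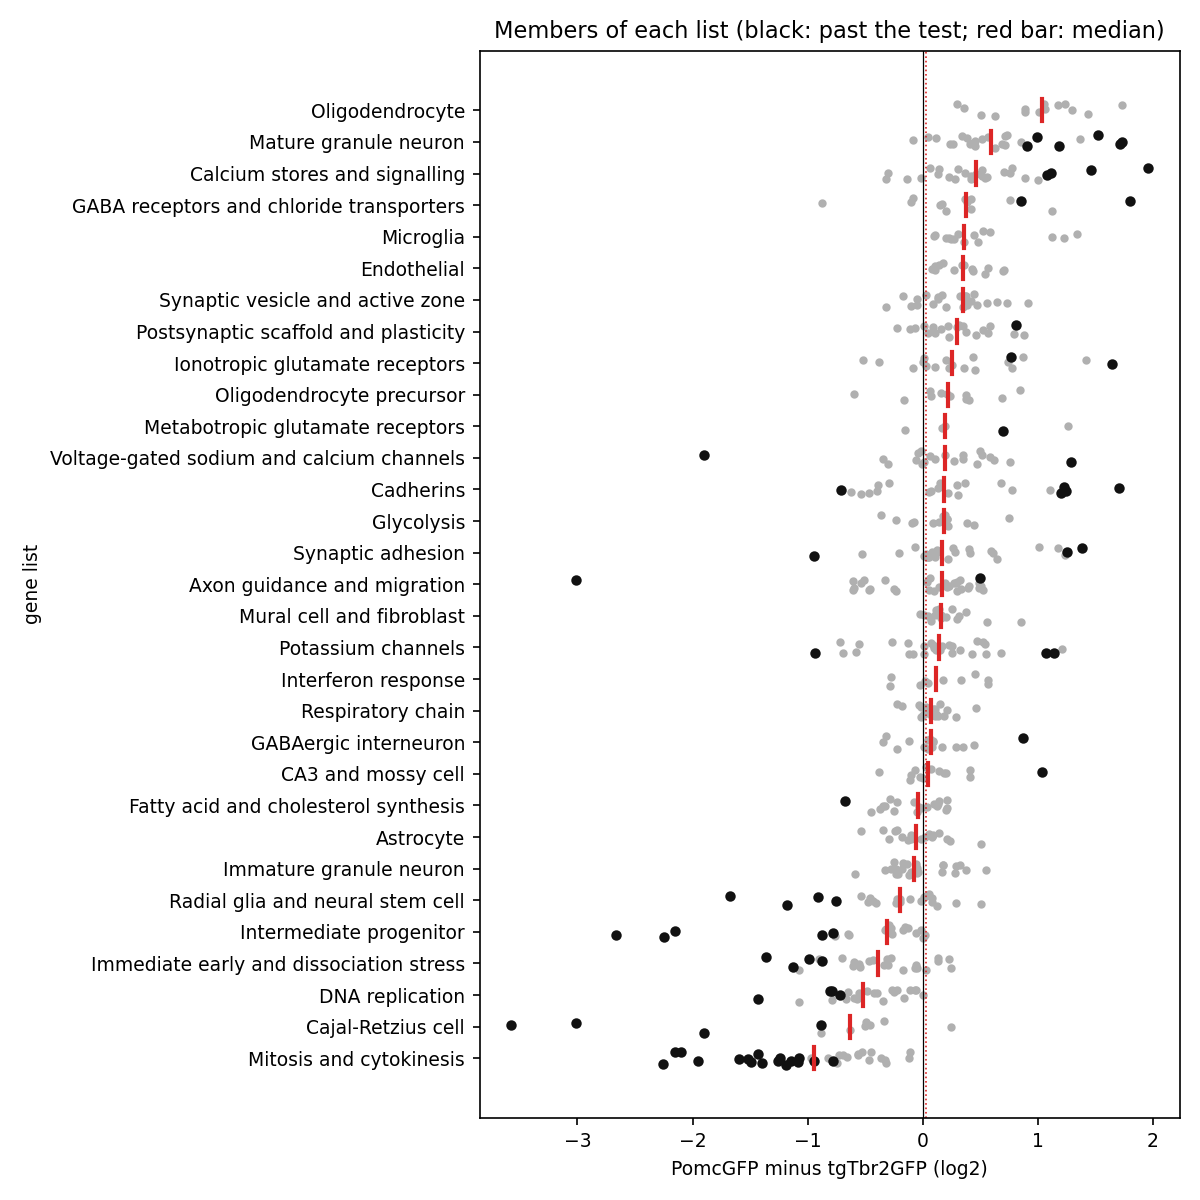
Difference PomcGFP minus tgTbr2GFP (log2, x axis) of each measured member of 31 gene lists (y axis), sorted by their median. Black points passed the test, grey points did not, red bars are medians and the dotted line is the median of all genes (0.03). Mitosis lies lowest with a median of -0.94, and the oligodendrocyte list lies highest with 1.03 although none of its members passed.

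Markers of other cells of the dentate gyrus moved with the comparison for some types. None of 14 measured oligodendrocyte genes passed, yet their median difference, 1.03, was the highest of the lists plotted. Their mean level was 8.91 and 8.98 in PomcGFP and 9.13, 7.23 and 7.56 in tgTbr2GFP, so tgTbr2GFP array 1 was as high as PomcGFP and the other arrays were far lower. Ermn, a myelin protein, read 9.78 and 9.79 against 9.99, 7.01 and 7.17 (1.73 ± 0.74, adjusted p = 0.444). Without tgTbr2GFP array 1, 9 of the 14 oligodendrocyte genes passed. The 15 microglia genes had a median of 0.36 and no call, with mean levels of 7.48 and 7.49 against 7.11, 6.81 and 7.02. In 12 both PomcGFP arrays were above all tgTbr2GFP arrays, against 15.9% of all genes. Tyrobp, a microglial signalling adaptor, read 8.86 and 9.28 against 8.23, 7.27 and 7.69 (1.34 ± 0.45, adjusted p = 0.256), and C1qc, a complement subunit, passed in the fit of the 5 arrays alone (adjusted p = 0.0417). The part of these cells in the higher genes of PomcGFP was not tested. In the mature granule neuron list tgTbr2GFP array 1 was also the highest of its line, but it stayed below both PomcGFP arrays, with mean levels of 8.99 and 8.84 in PomcGFP and 8.38, 8.08 and 8.22 in tgTbr2GFP.

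The other cell types gave no or single calls. None of 18 astrocyte genes passed (median -0.06), and Slc1a3, the glial glutamate transporter, had the largest difference (-0.53 ± 0.12, adjusted p = 0.0614). None of 12 genes of oligodendrocyte precursors (median 0.22; Tnr 0.85 ± 0.19, adjusted p = 0.0666), 14 endothelial genes (median 0.35; Itm2a 0.71 ± 0.34, 0.548), 17 genes of mural cells and fibroblasts (median 0.16; Vtn 0.86 ± 0.29, 0.251) and 2 red blood cell genes (median 0.01; Slc4a1 0.02 ± 0.13, 0.992) passed. Without tgTbr2GFP array 1, 2 genes of oligodendrocyte precursors and 2 endothelial genes passed. In 6 of the 12 oligodendrocyte precursor genes both PomcGFP arrays lay above all tgTbr2GFP arrays and in 2 below, against 15.9% and 13% of all genes. Positive differences were found in all 14 endothelial genes and in 16 of the 17 of mural cells and fibroblasts, against 9483 of all 16527 genes. Of 16 genes of GABAergic interneurons 1 was higher, Gad1, an enzyme that makes GABA, at 7.73 and 7.93 in PomcGFP and 7.20, 6.78 and 6.88 in tgTbr2GFP (0.88 ± 0.15, adjusted p = 0.0151). Gad2, the other enzyme, and Slc32a1, the vesicular GABA transporter, overlapped between the lines (0.09 for each), and Gad1 passed neither in the fit of the 5 arrays (0.0663) nor without PomcGFP array 1, PomcGFP array 2, tgTbr2GFP array 2 or tgTbr2GFP array 3. Of 14 genes of CA3 pyramidal and mossy cells 1 was higher, Cpne4, a calcium-dependent membrane-binding protein, at 7.71 and 7.82 against 6.88, 6.52 and 6.79 (1.04 ± 0.13, adjusted p = 0.00366), which did not pass without PomcGFP array 2 (0.0578).

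**Figure D5:**
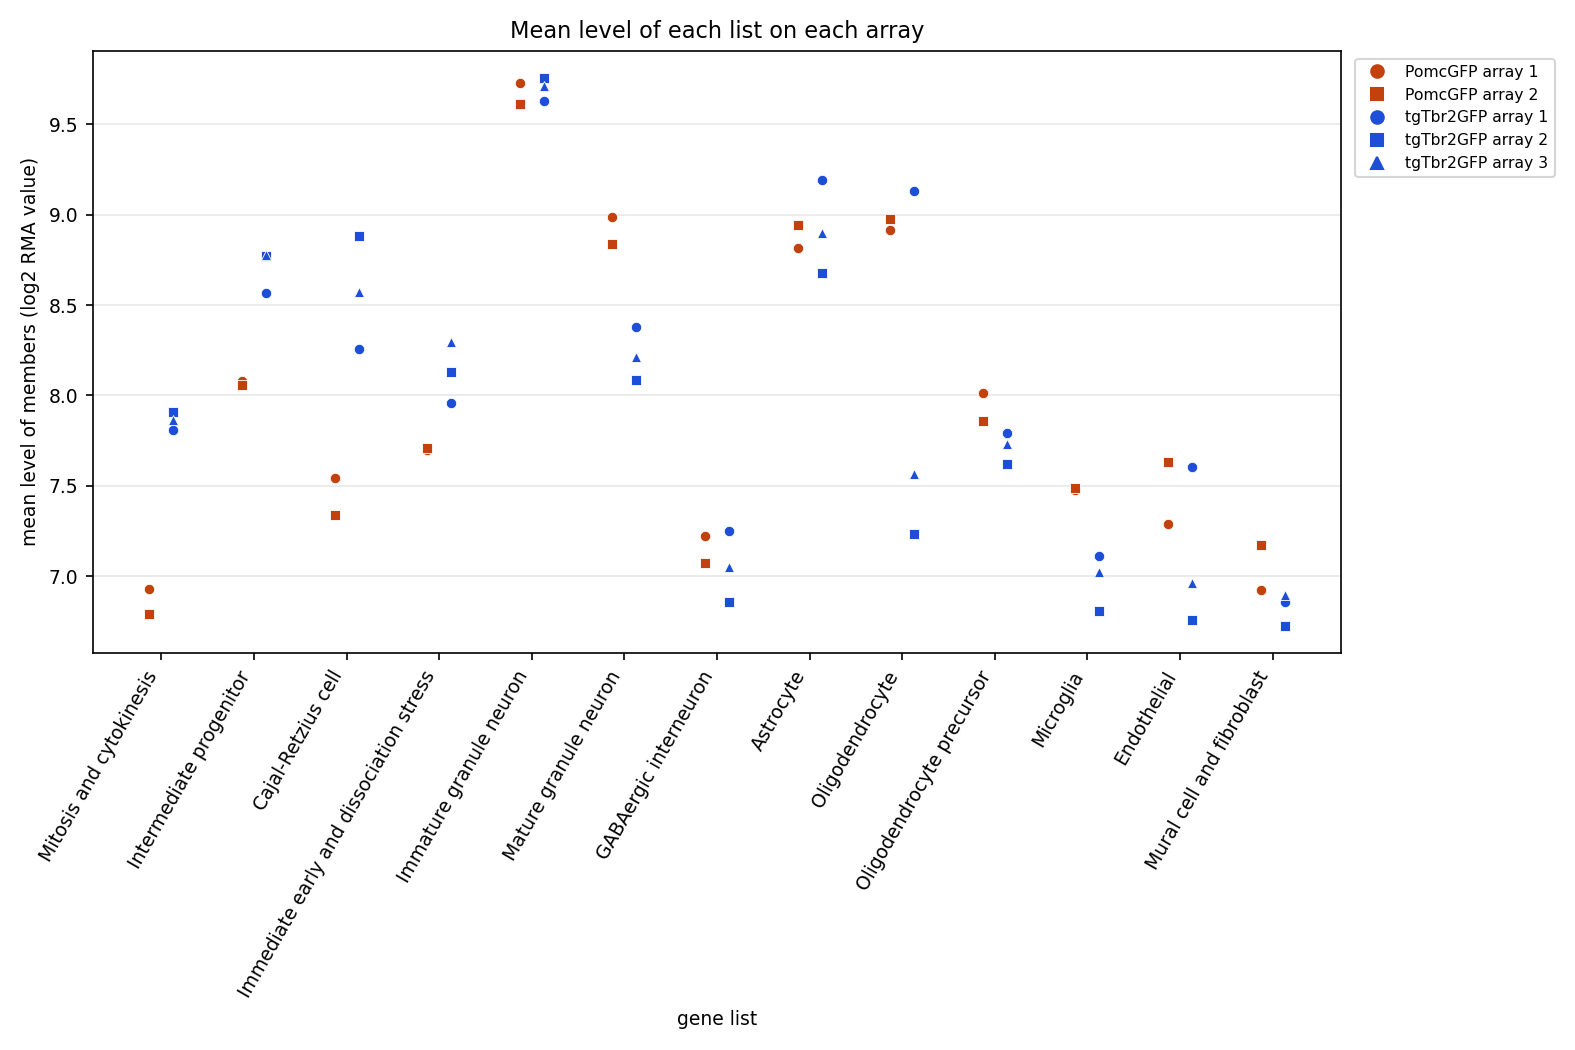
Mean level of the measured members of 13 lists (log2 RMA value, y axis) on each of the 5 arrays, orange for PomcGFP and blue for tgTbr2GFP. Each point is 1 array. Both PomcGFP arrays lie below all tgTbr2GFP arrays for mitosis, intermediate progenitors, Cajal-Retzius cells and immediate early genes. They lie above them for mature granule neurons and microglia, and by small steps for oligodendrocyte precursors and for mural cells and fibroblasts. tgTbr2GFP array 1 joins the PomcGFP arrays for oligodendrocyte genes (9.13 against 8.91 and 8.98). The axis does not start at 0, and levels of different lists are not comparable.

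Immediate early genes are known to be induced by neuronal activity and by the dissociation of tissue, and those that passed were lower in PomcGFP. Of 26 measured 4 were lower and none higher (median -0.38). In 15 both PomcGFP arrays lay below all tgTbr2GFP arrays and in 2 above, against 13% and 15.9% of all genes. Fosb, a subunit of the AP-1 factor, read 8.83 and 9.06 in PomcGFP and 10.16, 10.17 and 10.60 in tgTbr2GFP (-1.36 ± 0.17, adjusted p = 0.00411). Dusp1, a phosphatase that ends kinase signalling, read 8.87 and 8.93 against 9.68, 9.98 and 10.42 (-1.13 ± 0.22, adjusted p = 0.0281), and Ier2 read 7.04 and 7.23 against 8.08, 8.10 and 8.18 (-0.99 ± 0.18, adjusted p = 0.0224). All PomcGFP values of these genes were below all tgTbr2GFP values. The fourth was Btg2, described above among the progenitor genes. Fos did not pass (-0.90, adjusted p = 0.0667). In the fit of the 5 arrays Fosb and Ier2 passed, and Dusp1 (0.0802) and Btg2 (0.0988) did not. The count of 4 became 0 without PomcGFP array 1, 1 without PomcGFP array 2, tgTbr2GFP array 2, tgTbr2GFP array 3 or the kiTbr2GFP arrays, and 6 without tgTbr2GFP array 1.

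Metabolic genes differed little. None of 14 genes of glycolysis (median 0.18; Eno2, the neuronal enolase, 0.75 ± 0.19, adjusted p = 0.106), 23 genes of the respiratory chain (median 0.07; Ndufs4 0.46 ± 0.18, 0.364) or 10 interferon response genes (median 0.11; Ifit1 0.57 ± 0.19, 0.242) passed. Of 20 genes of fatty acid and cholesterol synthesis 1 was lower, Thrsp, a regulator of fatty acid synthesis known from slowly dividing stem cells, at 9.25 and 8.98 in PomcGFP and 9.65, 9.71 and 10.00 in tgTbr2GFP (-0.68 ± 0.14, adjusted p = 0.0423). Thrsp passed neither in the fit of the 5 arrays (0.112) nor without the kiTbr2GFP arrays, PomcGFP array 1, PomcGFP array 2, tgTbr2GFP array 2 or tgTbr2GFP array 3.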

How the data were processed

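Transcript levels were measured on Affymetrix Mouse Gene 1.0 ST arrays. The deposited values were log2 expression levels, 1 per probe set and array, made by the authors with RMA (oligo package, version not given in the sources used here), per the submitters' processing notes. Of 28858 probe sets 21789 had 1 gene symbol in the platform annotation, 1621 had several and 5448 had none given here, and the last 2 kinds were left out. Probe sets above the 25th percentile of their array on at least 2 of the 11 arrays were kept (18097). For 868 genes with several kept probe sets the probe set of highest mean over the 11 arrays was used, which gave 16527 genes. RMA scales the arrays to each other, so a change of total RNA per cell cannot be seen.

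limma 3.58.1 in R 4.3.3 was used to fit 1 mean per line to the 11 arrays, and the contrast PomcGFP minus tgTbr2GFP was tested two-sided, with Benjamini-Hochberg adjustment over the 16527 genes. The kiTbr2GFP and NesGFP arrays entered only the estimate of the spread, the filter and the choice of probe sets. No set test was made. On simulated data for this comparison (16527 genes) the fit recovered 8% of genes given a difference of 0.5, 82.7% at 1 and 98.2% at 2, and false calls made up 5.47% of calls. The simulated noise was normal and independent, with the spread of the fit itself and equal in all lines. The real arrays were less even, with array weights of 0.63 to 3.08. These shares therefore hold only where the assumptions of the fit hold. The number of arrays limits the precision. Tables and figures used Python 3.11.15, pandas 2.3.3, numpy 2.4.6 and matplotlib 3.10.9.

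The genes named are up to 15 of the largest differences in each direction among genes past the test whose arrays do not overlap, without predicted genes, microRNA, small nucleolar RNA and olfactory or vomeronasal receptor genes; 20 stage genes; up to 4 members past the test per list and direction; the sex-linked genes; and, in a list with no member past the test, the member of the largest difference. Other genes named as background or to complete a list were chosen after their values were seen. The comparison, the genes and the 33 lists (667 genes, 611 measured) were chosen with earlier results of these data known. Alternatives were other filters, probe set rules, scalings, priors, array weights and fits, and leaving out each array.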

Additional observations from a re-analysis of the deposited data

How the results depend on the processing

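The 226 calls kept their sign under every alternative in which they could be tested (218 of them with the 50th percentile filter), while their number depended on the fit. The counts of all, higher and lower genes were 143, 53 and 90 in the fit of the 5 arrays, 104, 47 and 57 without the kiTbr2GFP arrays, 1063, 476 and 587 with array weights, where tgTbr2GFP array 2 had a weight of 3.08, and 132, 54 and 78 with the Y-linked level as covariate, an alternative chosen after seeing the data. Leaving out 1 array gave 38 to 275 calls, 8 to 143 higher and 30 to 132 lower. The labels number the arrays of both lines. Correlations of deviations were 0.00254 for number 1 and -0.06 for number 2, and -0.0576 to 0.06 between unlike numbers. The deviations of the 2 PomcGFP arrays mirror each other, so these values cannot decide whether the numbers pair the arrays. With the replicate number as a block, 152 genes passed, 62 higher and 90 lower, and 135 were shared with the fit without the block. No filter, the 50th percentile filter, the mean of the probe sets, cyclic loess, median centring and a trended robust prior gave 225, 226, 232, 231, 200 and 244 calls. Signs turned only in genes that had not passed. Slc4a1 was -0.027 with cyclic loess and -0.0092 with median centring, and Uty and Kdm5d were each -0.039 with the Y-linked covariate. With 1 array left out Slc4a1 ran from -0.022 to 0.075, Xist from -0.38 to 2.14, Eif2s3y from -0.35 to 2.66, Uty from -0.14 to 1.70 and Kdm5d from -0.0945 to 1.04, the lowest without tgTbr2GFP array 1 for Xist and without array 2 for the others. Levels under the 25th percentile of an array bound what the lowest genes can show, and with 2 PomcGFP arrays differences near 0.5 were mostly out of reach. The causes of these changes were not tested.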
